A study of Mus musculus with 68 samples.

Results

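Klf5 was induced in motor neurons made from mouse embryonic stem cells, and its 2 arrays were compared with 2 arrays of motor neurons in which YFP, a fluorescent protein with no known regulatory function, was induced in its place. The members were chosen by title and batch. They were the Klf5 array of batch 1 and that of batch 2, each set against the YFP array of its own batch, so 4 of the 68 arrays of the series form the comparison. Another 2 YFP arrays, both of batch 3, took no part in the difference. They show how far control arrays lie from each other and add to the spread behind the p-values. The series screened candidate determinants of phrenic motor neurons, which lie in the cervical spinal cord and innervate the diaphragm, and the question here is which genes differ once Klf5 is induced.

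All these cells shared 1 protocol. Embryonic stem cells labelled C57/BL6 were grown as embryoid bodies without serum, retinoic acid and Smoothened agonist were added on day 2 to give a ventral spinal character, and on day 5 the cells were dissociated and sorted magnetically for CD2, a surface reporter transgene of motor neurons. Doxycycline then induced the transgene, Klf5 or YFP, during 30 hours of culture on matrigel. The YFP cells therefore also carried an induced transgene and the CD2 reporter. The labels give neither the clone behind each line nor whether each array had a culture of its own. The p-values here take their spread from all 68 arrays of the series, other induced lines included. They cover only variation among those arrays, part of which may be technical.

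KLF5 is a zinc finger transcription factor of the Krüppel-like family, whose members bind GC-rich and CACCC-type DNA. It is best known from proliferating epithelia such as the intestinal crypt, from self-renewing embryonic stem cells, from the trophectoderm of the early embryo, and from vascular smooth muscle and fat cells. Other family members act in neurons, where mouse Klf4 is known to restrain and Klf6 and Klf7 to promote axon growth.

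The array values are log2 levels, so a difference of 1 is a doubling of signal, and levels of different genes are not on a common scale. A gene is said to have risen or fallen when the mean of its 2 within-batch differences had an adjusted p under 0.05 in limma over 19938 genes, and ± is followed by the fit's standard error. Motor neuron markers were read to check the label of the sorted cells. Isl1, the homeodomain factor that defines motor neurons, read 12.69 and 12.73 in the Klf5 arrays, against 12.89 and 12.69 in the YFP arrays of their batches. Slc18a3, the vesicular acetylcholine transporter, read 13.13 and 12.80 in the Klf5 arrays, against 13.03 and 12.80 in the YFP arrays. These 2 genes were far above the array medians on every array, which was not so for all markers. Mnx1, a motor neuron homeodomain factor, read 8.87 and 8.95 in the Klf5 arrays, against 8.51 and 9.14 in the YFP arrays. Lhx3, a factor of newly born motor neurons, was under the medians, with 7.85 and 7.83 in the Klf5 arrays, against 7.75 and 7.72 in the YFP arrays. Array medians lay between 8.18 and 8.28 over the 2 Klf5 and 4 YFP arrays. The genes' log2 differences between Klf5 and YFP had an SD of 0.302 in batch 1 and 0.233 in batch 2, and those between the 2 YFP arrays of batch 3 had an SD of 0.343. Across all genes, then, a Klf5 array lay no farther from its YFP array than 2 YFP arrays lay from each other.

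Klf5 itself was the gene that stood farthest apart. It read 11.92 and 11.99 in the Klf5 arrays, against 8.97 and 8.58 in the YFP arrays of their batches. The YFP arrays of batch 3 read 8.67 and 8.46, also far below the Klf5 arrays. Klf5 rose by 3.18 ± 0.14, which is 9.06-fold (95% interval 2.89 to 3.46 on the log2 scale, adjusted p = 1.31e-18, 2 array pairs). The 43 other CD2 arrays of the series ran from 8.13 to 9.31 with a median of 8.51, and the 23 arrays sorted for the other reporter, CD14, from 7.70 to 9.10. No other array of the series came near the 2 arrays labelled Klf5. Transgene and endogenous Klf5 RNA were not told apart here.

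Beside Klf5, a short list of genes moved with it. In all, 48 of 19938 genes passed (0.241%), 41 of them higher (0.206%) and 7 lower (0.0351%). An unadjusted p under 0.05 was found for 1257 genes. The spread behind these calls came from all 68 arrays. With the Klf5 and YFP CD2 arrays alone to set it, 1 gene passed, Klf5 itself. The count of 48 became 16 without the Klf5 array of batch 1, 17 without the YFP array of batch 1 and 137 without the YFP array of batch 2. The split of higher and lower genes moved with them. It was 16 higher and 0 lower without the Klf5 array of batch 1, 16 and 1 without the YFP array of batch 1, 26 and 20 without the Klf5 array of batch 2, and 60 and 77 without the YFP array of batch 2. All 48 had the same sign in both batches, and 14 changed at least 2-fold, all of them upward. The rises ran from 0.43 to 2.26 below Klf5, and the falls from -0.48 to -0.73. Among the 41 genes that rose, both Klf5 arrays lay above all 4 YFP arrays for 37, and among the 7 that fell both lay below them for 6. The differences behind the calls come from the Klf5 arrays and the YFP arrays of batches 1 and 2, so these counts are a description. Their share over all genes was not counted. In the plot of batch 1 against batch 2 the genes called higher lie toward the upper right, some of them near an axis. Their place follows in part from calling genes on the mean of the 2 differences. Most genes scatter around 0 with no common direction. Across all genes the differences of the 2 batches correlated at -0.02, as a description.

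**Figure D1:**
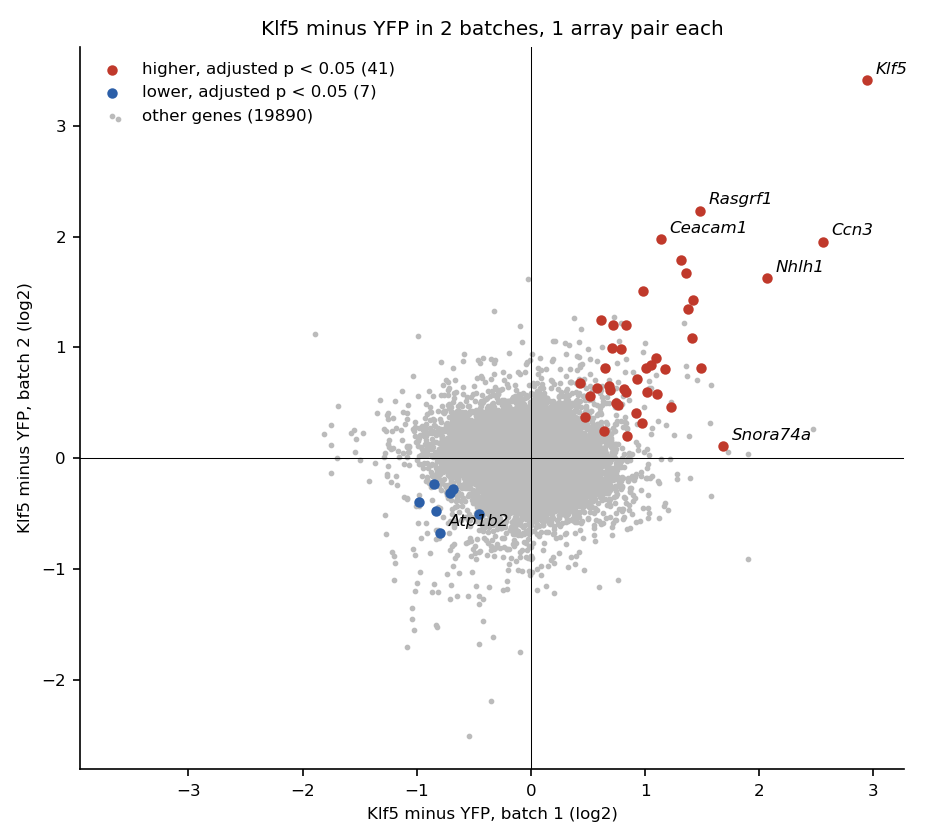
Each point is 1 of 19938 genes, with its Klf5 minus YFP difference (log2) in batch 1 on the x axis and in batch 2 on the y axis; red genes were called higher (41), blue genes lower (7), grey genes were not called. Klf5 lies alone at 2.94 and 3.41, Ccn3 follows at 2.56 and 1.95, and Snora74a is far from 0 in batch 1 only (1.68 and 0.11).

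The largest rise after Klf5 was that of Ccn3, also known as Nov, which encodes a secreted matricellular protein. Ccn3 read 10.23 and 10.10 in the Klf5 arrays, against 7.67 and 8.15 in the YFP arrays of their batches. The batch 3 YFP arrays read 7.71 and 8.12, and over all 26 other CD2 arrays of batches 1 to 3 the highest reading was 8.66. Ccn3 rose by 2.26 ± 0.22, or 4.78-fold (adjusted p = 3.53e-08), and its groups did not overlap.

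Rasgrf1, a calcium-responsive exchange factor that activates Ras in neurons, came next. It read 8.36 and 8.77 in the Klf5 arrays, against 6.88 and 6.54 in the YFP arrays of their batches and 7.19 and 6.98 in those of batch 3. It rose by 1.86 ± 0.20 (3.62-fold, adjusted p = 1.55e-07), and both Klf5 arrays were above the highest of the other 26 (7.26). Ppef1, a protein phosphatase with calcium-binding EF hands, was a dim gene in controls. It read 6.52 and 6.70 in the Klf5 arrays, against 5.20 and 4.92 in their YFP arrays. It rose by 1.55 ± 0.19 (adjusted p = 2.34e-06), again above all 26 other CD2 arrays, of which the highest read 5.77.

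Clic6, a member of the chloride intracellular channel family, gave the same difference in both batches. It read 7.78 and 7.78 in the Klf5 arrays, against 6.36 and 6.35 in the YFP arrays, and rose by 1.42 ± 0.17 (adjusted p = 2.34e-06). Elovl7, an enzyme that elongates long-chain fatty acids, was as even. It read 8.54 and 8.59 in the Klf5 arrays, against 7.16 and 7.25 in the YFP arrays, and rose by 1.36 ± 0.18 (adjusted p = 1.41e-05). Myo1a, the brush border myosin of intestinal epithelium, read 7.73 and 8.14 in the Klf5 arrays, against 6.75 and 6.63 in the YFP arrays. It rose by 1.24 ± 0.12 (adjusted p = 1.16e-08), and the highest of the 26 other arrays was its batch 1 YFP array at 6.75. Laptm5, a lysosomal membrane protein known from blood cells, read 7.55 and 7.93 in the Klf5 arrays, against 6.71 and 6.72 in the YFP arrays. It rose by 1.02 ± 0.13 (adjusted p = 8.52e-06).

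These genes also kept their calls whichever array was left out. Of the 41 rises, 9 passed without each of the 4 paired arrays in turn: Klf5, Ccn3, Rasgrf1, Ppef1, Clic6, Elovl7, Myo1a, Laptm5 and Acot11, an acyl-CoA thioesterase named here after its values were seen (0.67 ± 0.10). Their largest adjusted p in any of these fits was 0.0244, for Acot11 without the YFP array of batch 1. None of the 7 falls did so. No called gene changed sign without any 1 array.

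Since KLF proteins bind GC-rich letters, promoter windows of the genes that kept their calls and rose by over 1 are shown, where the RefSeq table held one. Each runs from 250 bases before to 50 bases after the annotated start, 5′ to 3′ on the gene's strand (build GRCm38.p6), with matches to CCNCNCCC on either strand in capitals, overlapping matches merged. The windows are Rasgrf1 at chr9:89909525-89909824 (plus strand), Elovl7 at chr13:108214154-108214453 (plus strand), Myo1a at chr10:127705006-127705305 (plus strand), Laptm5 at chr4:130913066-130913365 (plus strand) and Ppef1 at chrX:160719923-160720222 (minus strand).
Rasgrf1: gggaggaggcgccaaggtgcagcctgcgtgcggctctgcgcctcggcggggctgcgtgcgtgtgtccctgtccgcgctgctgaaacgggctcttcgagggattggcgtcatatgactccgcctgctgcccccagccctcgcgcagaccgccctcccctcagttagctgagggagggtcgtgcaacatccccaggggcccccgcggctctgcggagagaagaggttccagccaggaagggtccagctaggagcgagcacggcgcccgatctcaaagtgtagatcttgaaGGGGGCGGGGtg
Elovl7: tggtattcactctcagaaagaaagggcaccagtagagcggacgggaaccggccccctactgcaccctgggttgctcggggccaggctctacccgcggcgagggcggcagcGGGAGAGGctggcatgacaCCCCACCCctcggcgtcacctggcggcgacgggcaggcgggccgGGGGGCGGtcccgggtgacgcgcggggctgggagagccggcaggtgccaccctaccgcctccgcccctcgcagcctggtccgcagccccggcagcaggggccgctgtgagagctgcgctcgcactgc
Myo1a: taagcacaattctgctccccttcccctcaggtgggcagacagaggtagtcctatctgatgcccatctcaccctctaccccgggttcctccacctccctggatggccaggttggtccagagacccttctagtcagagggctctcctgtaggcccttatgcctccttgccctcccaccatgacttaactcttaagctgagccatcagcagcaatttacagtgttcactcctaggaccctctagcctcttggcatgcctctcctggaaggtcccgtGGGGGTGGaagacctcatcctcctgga
Laptm5: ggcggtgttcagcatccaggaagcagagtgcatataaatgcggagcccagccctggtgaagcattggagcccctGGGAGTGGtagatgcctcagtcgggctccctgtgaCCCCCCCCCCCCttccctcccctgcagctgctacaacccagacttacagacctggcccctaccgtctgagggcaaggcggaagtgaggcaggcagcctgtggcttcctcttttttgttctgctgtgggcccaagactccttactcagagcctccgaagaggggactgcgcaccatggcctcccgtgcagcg
Ppef1: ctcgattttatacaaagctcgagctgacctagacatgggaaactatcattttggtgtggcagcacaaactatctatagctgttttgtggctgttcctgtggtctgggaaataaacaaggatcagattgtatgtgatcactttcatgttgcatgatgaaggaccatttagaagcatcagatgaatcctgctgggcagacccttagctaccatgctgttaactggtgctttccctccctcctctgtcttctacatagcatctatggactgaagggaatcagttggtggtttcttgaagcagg

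The Rasgrf1 window held 2 overlapping matches near its 3′ end, the Elovl7 window 3, the Myo1a window 1 and the Laptm5 window 6, of which 5 overlap in 1 run of C. The Ppef1 window held none. Windows were found for 28 of the 41 genes that rose, 39 windows in all, and 31 of the 39 (79.5%) held a match, against 59.6% of the 19177 windows of all genes tested. For GGGCGG, the GC box, which can overlap a CCNCNCCC match, the share was 56.4% of the 39 windows and 49.2% of the 19177. The 39 windows also had more G and C, with a median of 64.7%, against 57.3% in the windows of all genes tested. Of 5 windows found for genes that fell, 3 held a CCNCNCCC match and 3 a GGGCGG match, with a median of 67% G and C. The part of base composition in these shares was not tested.

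Several other large rises were less even between arrays. Nhlh1, a basic helix-loop-helix factor of newly born neurons, read 10.02 and 9.91 in the Klf5 arrays, against 7.95 and 8.28 in the YFP arrays of their batches. It rose by 1.85 ± 0.37 (adjusted p = 0.0127), and its call was lost without the Klf5 array of batch 1, that of batch 2 or the YFP array of batch 1, with adjusted p up to 0.612. Both Klf5 arrays still lay above the other 26 CD2 arrays, which reached 9.06.

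Ceacam1, an immunoglobulin-family adhesion receptor of epithelia, had unequal controls. It read 8.67 and 8.53 in the Klf5 arrays, against 7.53 and 6.55 in the YFP arrays of batches 1 and 2 and 7.20 and 6.33 in those of batch 3. It rose by 1.56 ± 0.24 (adjusted p = 0.000293), with adjusted p = 0.0753 without the YFP array of batch 2. Pmp22, a membrane protein best known from peripheral myelin, read 11.46 and 11.69 in the Klf5 arrays, against 10.10 and 10.01 in the YFP arrays. A batch 3 YFP array read 10.73, and the highest of the 26 other CD2 arrays, at 11.91, exceeded both Klf5 arrays. Pmp22 rose by 1.52 ± 0.29 (adjusted p = 0.00592), and the call was lost without the Klf5 array of batch 2 (adjusted p = 0.142) or the YFP array of batch 1 (adjusted p = 0.262).

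Gfra3, the receptor for the neurotrophic factor artemin, read 9.93 and 9.53 in the Klf5 arrays, against 8.52 and 8.45 in the YFP arrays of their batches and 8.69 and 9.25 in those of batch 3. It rose by 1.25 ± 0.18 (adjusted p = 0.000135), with adjusted p = 0.0826 without the Klf5 array of batch 1 and 0.201 with no batch terms in the model. Gfra1, the receptor for the related factor GDNF, read 11.52 and 11.64 in the Klf5 arrays, against 10.52 and 10.60 in their YFP arrays. Its groups did not overlap, but its difference of 1.02 ± 0.25 did not pass (adjusted p = 0.0769). Ret, the signalling receptor that both use, differed by 0.42 ± 0.16 and did not pass either (adjusted p = 0.587).

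Adgrb2, an adhesion G protein-coupled receptor of brain, read 10.48 and 10.57 in the Klf5 arrays, against 8.99 and 9.76 in the YFP arrays. It rose by 1.15 ± 0.17 (adjusted p = 8.04e-05), and without the low YFP array of batch 1 the difference was 0.78 with adjusted p = 0.207. The plot of the 12 largest rises shows the same picture gene by gene.

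**Figure D2:**
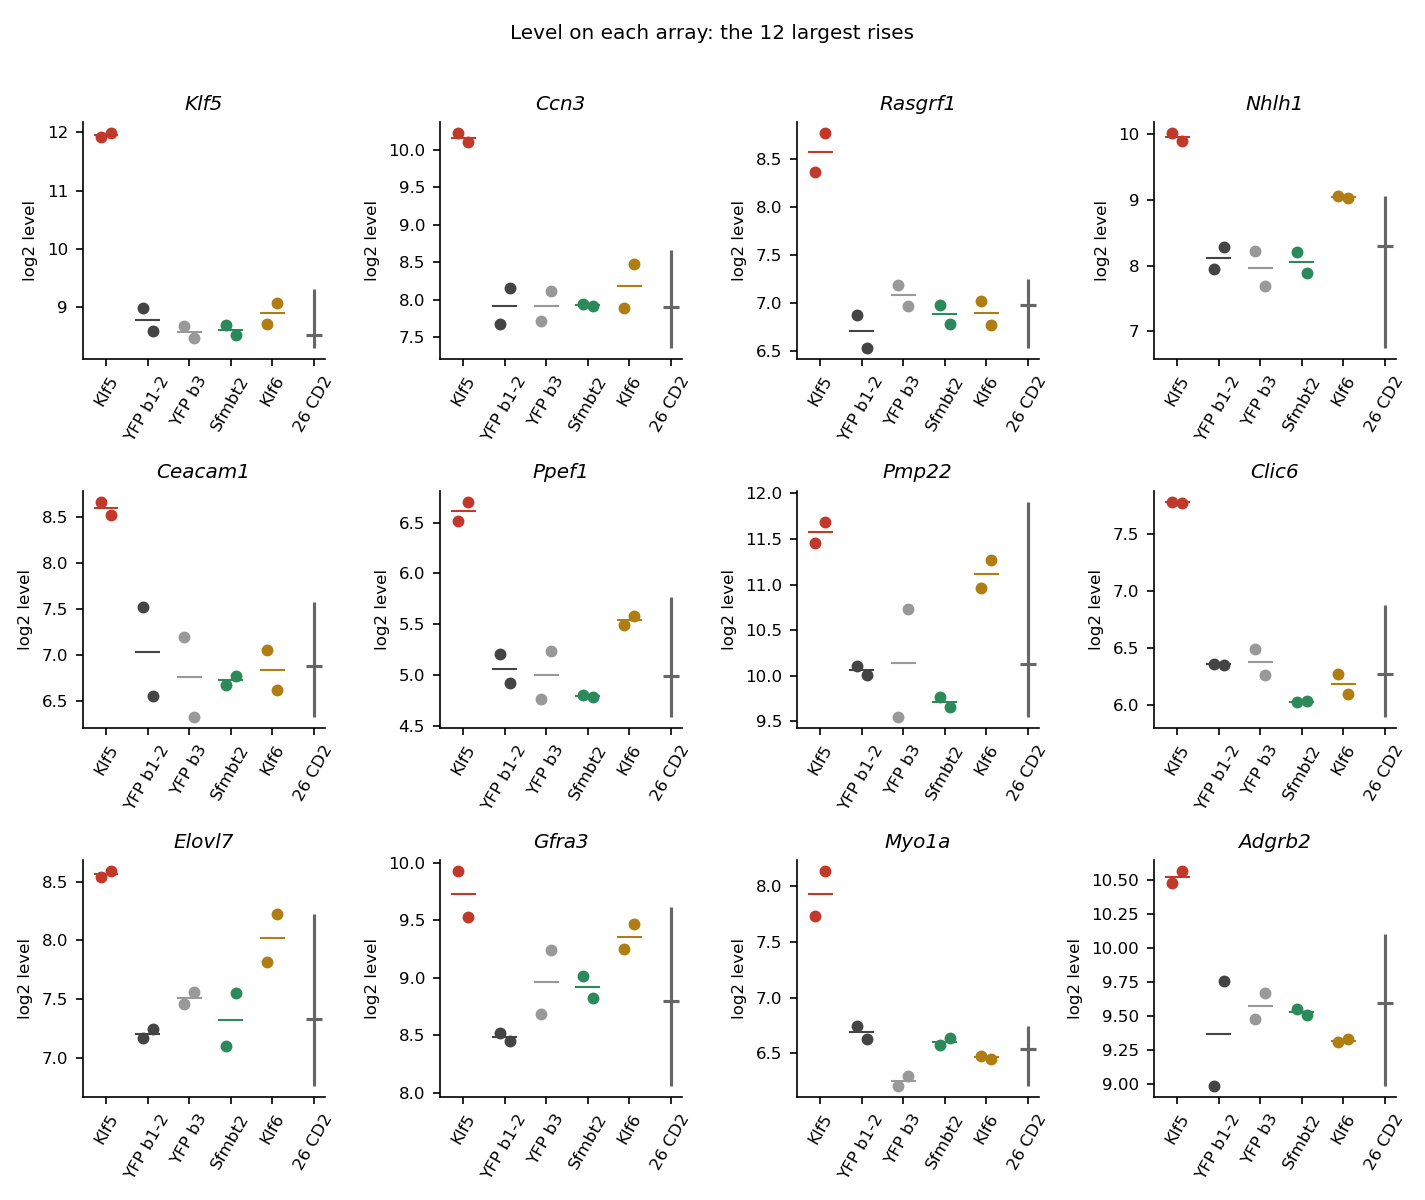
Log2 level (y axis, own scale per gene) of the 12 genes with the largest called rises; points are single arrays, short lines the mean of the 2 arrays of Klf5, YFP of batches 1 and 2, YFP of batch 3, Sfmbt2 and Klf6. The vertical line gives the range over the 26 CD2 arrays of batches 1 to 3 other than Klf5 (the YFP, Sfmbt2 and Klf6 arrays included) with its median as a tick; both Klf5 points lie above that line except for Pmp22 and Gfra3.

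Of the other genes that rose, 4 belonged to gene lists. Fgf15, a secreted fibroblast growth factor, read 8.61 and 8.66 in the Klf5 arrays, against 7.83 and 7.67 in the YFP arrays, and rose by 0.89 ± 0.16 (adjusted p = 0.00174). It stayed far below 12.32, the highest of the 26 other CD2 arrays, and its call was lost without the Klf5 array of batch 2 (adjusted p = 0.0724) or the YFP array of batch 1 (adjusted p = 0.0507). Lamb3, the beta chain of an epithelial basement membrane laminin, rose by 0.62 ± 0.12 (adjusted p = 0.00579). It read 8.53 and 8.33 in the Klf5 arrays, against 7.77 and 7.85 in the YFP arrays, above all 26 others, and lost the call without either array of batch 1 (adjusted p = 0.473 and 0.567). Pcdh8, a protocadherin of the developing nervous system and somites, read 10.20 and 9.93 in the Klf5 arrays, against 9.27 and 9.22 in the YFP arrays. It rose by 0.82 ± 0.17 (adjusted p = 0.0203), but its call was lost without each of the 4 paired arrays in turn, with adjusted p from 0.0514 to 0.808, and with no batch terms (adjusted p = 0.620). Laptm5 was the fourth.

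The remaining 25 rises fall outside the naming rule and are given to complete the 41. Of these, Acot11 alone kept its call whichever of the 4 paired arrays was left out. Those with a role in membrane excitability were Cacna2d2, an auxiliary subunit of calcium channels (0.94 ± 0.18), Cacna1h, a T-type calcium channel (0.65 ± 0.11), Kcnh4, a potassium channel (0.73 ± 0.15), and Kctd16, an auxiliary subunit of GABA-B receptors (0.93 ± 0.16). Receptors, ligands and their regulators were Adgre5 (1.00 ± 0.22), Nxph4, a neurexin ligand (0.99 ± 0.22), Sema6c, a transmembrane semaphorin (0.84 ± 0.15), Ephb3, an ephrin receptor (0.52 ± 0.12), Notch4 (0.72 ± 0.14), Flt4, a VEGF receptor (0.66 ± 0.13), Insrr, a relative of the insulin receptor (0.55 ± 0.12), Elfn2 (0.54 ± 0.12) and Ltbp4, which binds latent TGF-beta (0.44 ± 0.10).

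Cytoskeletal and nuclear envelope genes were Ank1, an ankyrin (0.96 ± 0.20), Plec, the linker protein plectin (0.84 ± 0.14), Cdc42ep1, a Cdc42 effector (0.91 ± 0.21), and Lmna, which encodes lamin A and C (0.43 ± 0.10). Enzymes and signalling proteins were Pde8a, a cAMP phosphodiesterase (0.85 ± 0.14), Prkcd, a protein kinase C (0.81 ± 0.16), Acot11, Plaat1 (0.61 ± 0.14), Akp3, an alkaline phosphatase of intestine (0.65 ± 0.14), Necab2, a neuronal calcium-binding protein (0.71 ± 0.15), and Hspa12b (0.62 ± 0.14). For Adgre5, Prkcd, Hspa12b and Elfn2 a YFP array of batch 3 read as high as a Klf5 array. Prkcd was the clearest case, with 10.43 and 10.18 in the Klf5 arrays, against 9.41 and 9.59 in their own YFP arrays but 10.55 and 10.39 in the YFP arrays of batch 3. Cacna1h, Plec, Prkcd and Ephb3 were lowest in the YFP array of batch 1 among the 26 other CD2 arrays of batches 1 to 3.

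The last of the 25, Snora74a, a small nucleolar RNA, rested on 1 array. It read 9.82 and 8.38 in the Klf5 arrays, against 8.13 and 8.27 in the YFP arrays, which gave differences of 1.68 in batch 1 and 0.11 in batch 2. Its call (0.90 ± 0.19, adjusted p = 0.0271) was lost without the Klf5 array of batch 1, where the difference was 0.26. The 63 small noncoding RNA genes measured had a median difference of 0.44 in batch 1 and -0.08 in batch 2, and their part in this result was not tested.

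The 7 falls were all under 1 log2 unit. Atp1b2, the beta 2 subunit of the sodium pump, read 8.02 and 7.97 in the Klf5 arrays, against 8.82 and 8.64 in the YFP arrays of their batches and 8.91 and 8.40 in those of batch 3. It fell by 0.73 on the log2 scale (SE 0.16, adjusted p = 0.0271), and both Klf5 arrays lay below all 26 other CD2 arrays, of which the lowest read 8.14. Carmil1, a regulator of actin capping protein, read 8.26 and 8.77 in the Klf5 arrays, against 9.09 and 9.25 in the YFP arrays. It fell by 0.65 (SE 0.15, adjusted p = 0.0394), but a YFP array of batch 3 read 8.74, inside the span of the Klf5 arrays.

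Thoc3, a component of the THO complex of mRNA export, read 11.44 and 11.99 in the Klf5 arrays, against 12.29 and 12.22 in the YFP arrays, and fell by 0.54 (SE 0.12, adjusted p = 0.0312). Degs1, the desaturase that makes ceramide, read 10.24 and 10.22 in the Klf5 arrays, against 10.95 and 10.54 in the YFP arrays, and fell by 0.51 (SE 0.11, adjusted p = 0.0271). These groups did not overlap, though for both genes other CD2 arrays of batches 1 to 3 read as low as a Klf5 array. Txnrd2, the mitochondrial thioredoxin reductase, fell by 0.48 (SE 0.10, adjusted p = 0.0271), with 8.14 and 8.23 in the Klf5 arrays, against 8.59 and 8.74 in the YFP arrays. Mapk14, which encodes the stress kinase p38 alpha, fell by 0.48 (SE 0.11, adjusted p = 0.0394), with 10.26 and 10.67 in the Klf5 arrays, against 10.94 and 10.94 in the YFP arrays. The seventh was a gene with a provisional symbol. None of the 7 passed without the Klf5 array or the YFP array of batch 1. There were 3 left without the Klf5 array of batch 2 and 4 without the YFP array of batch 2. The 6 named falls did not pass when only the CD2 arrays of batches 1 to 3 set the spread (adjusted p from 0.126 to 0.434), nor did Lamb3 (0.136). With no batch terms Atp1b2, Carmil1, Thoc3 and Txnrd2 did not pass (adjusted p from 0.0731 to 0.310).

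**Figure D3:**
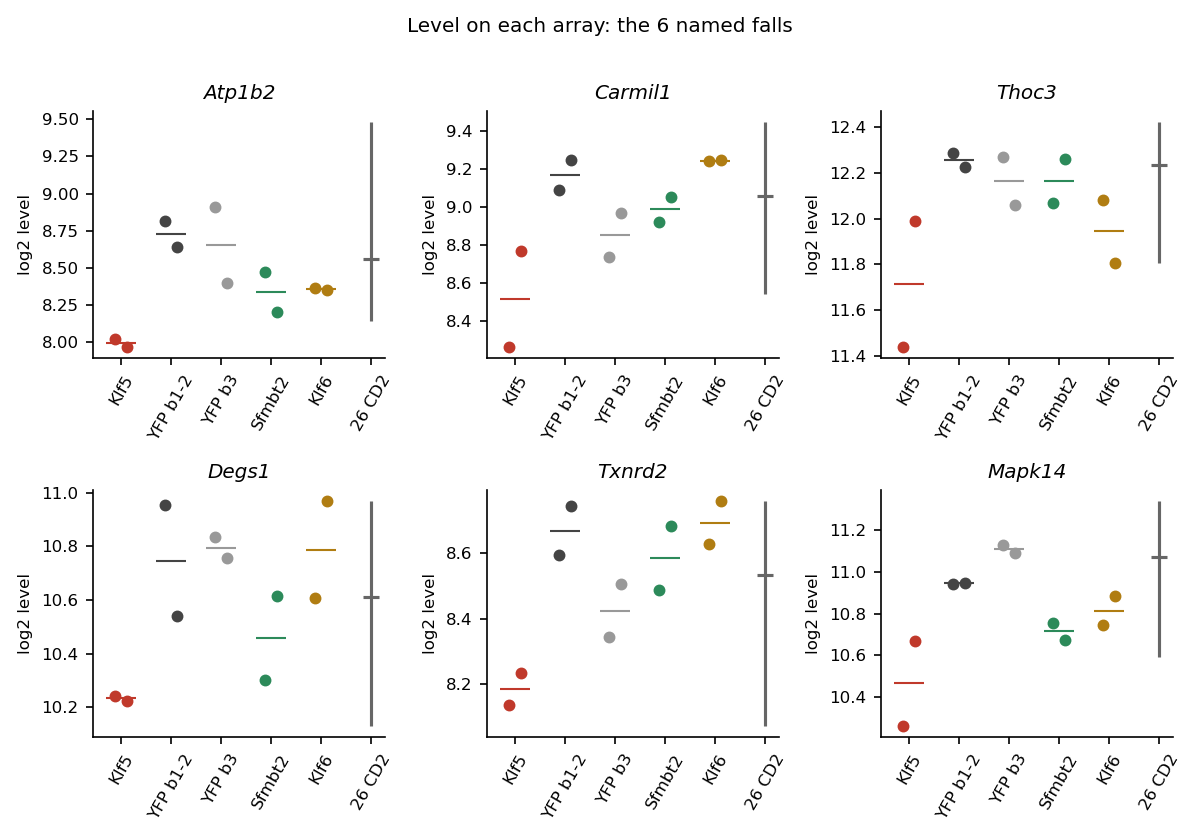
Log2 level (y axis, own scale per gene) of the 6 named genes that fell, with single arrays as points, group means as short lines, and the range and median of the 26 other CD2 arrays of batches 1 to 3 (YFP, Sfmbt2 and Klf6 included) at the right. The Klf5 points lie low in every panel, and both lie below the whole range only for Atp1b2.

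The position of the Klf5 arrays among the arrays of their own batches was also counted. Batch 1 held 4 arrays in all and batch 2 held 9, each of CD2-sorted cells. For 36 of the 41 rises the Klf5 array was the highest in both batches, and for 5 of the 7 falls it was the lowest in both. Of all genes, 5.14% had the Klf5 array at that end in both batches. Both Klf5 arrays lay outside the range of all 26 other CD2 arrays of batches 1 to 3 for 22 of the 41 rises and 2 of the 7 falls, against 0.848% of all genes. These counts rest on the arrays that made the calls and are given as a description.

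Other induced lines gave a second set of controls. Sfmbt2, which encodes a Polycomb-group protein, was induced in CD2-sorted cells with 1 array in each of batches 1 and 2, so it could be paired with Klf5 without any YFP array. In Klf5 minus Sfmbt2, 34 genes passed (0.171%), 32 higher and 2 lower. Klf6, the other Krüppel-like factor of the screen, had arrays in batches 2 and 3, so only batch 2 held both lines and the rest of that difference runs through the batch terms of the model. In Klf5 minus Klf6, 22 genes passed (0.11%), 17 higher and 5 lower. Single arrays moved these counts. Klf5 minus Sfmbt2 gave 16 genes without the Klf5 array of batch 1 and 13 without either Sfmbt2 array, and Klf5 minus Klf6 gave 13 without the Klf5 array of batch 1, 10 without that of batch 2 and 44 without the Klf6 array of batch 2. The comparisons with YFP, Sfmbt2 and Klf6 share the Klf5 arrays, so their values are set side by side and not counted as separate evidence.

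Of the 22 named genes that passed against YFP, 14 passed against Sfmbt2 and 10 against Klf6, all of them higher. Ccn3 was higher by 2.24 ± 0.22 over Sfmbt2 and by 2.12 ± 0.26 over Klf6 (adjusted p = 3.27e-08 and 3.79e-06). Myo1a was higher by 1.33 ± 0.12 over Sfmbt2 and by 1.41 ± 0.13 over Klf6 (adjusted p = 1.91e-09 and 1.30e-08). Ceacam1, uneven among YFP arrays, was higher by 1.87 ± 0.24 over Sfmbt2 and by 1.81 ± 0.28 over Klf6 (adjusted p = 1.03e-05 and 0.000351). Klf5, Rasgrf1, Ppef1, Clic6, Adgrb2 and Laptm5 also passed in both. Gfra3 (0.81 ± 0.18, adjusted p = 0.0507), Pcdh8 (0.73 ± 0.17, adjusted p = 0.0753) and the 6 named falls did not pass against Sfmbt2. Pcdh8 did pass against Klf6 (1.04 ± 0.20, adjusted p = 0.00889).

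A few genes that rose over YFP also read above the YFP arrays of batches 1 and 2 in the Klf6 line. Nhlh1 read 10.02 and 9.91 in the Klf5 arrays, against 9.06 and 9.03 in the Klf6 arrays. The reading of 9.06 was the highest among the other CD2 arrays of batches 1 to 3. Its Klf5 minus Klf6 difference was 0.64 ± 0.43 and did not pass (adjusted p = 0.857). Pmp22 read 11.46 and 11.69 in the Klf5 arrays, against 10.97 and 11.27 in the Klf6 arrays, and differed by 0.38 ± 0.33 (adjusted p = 0.881). Elovl7 read 8.54 and 8.59 in the Klf5 arrays, against 7.81 and 8.22 in the Klf6 arrays, and differed by 0.83 ± 0.20 (adjusted p = 0.129). Adgre5 read 8.40 and 8.35 in the Klf5 arrays, against 8.34 and 8.55 in the Klf6 arrays, and differed by 0.17 ± 0.25 (adjusted p = 0.937). Gfra3 read 9.93 and 9.53 in the Klf5 arrays, against 9.25 and 9.47 in the Klf6 arrays, and differed by 0.59 ± 0.21 (adjusted p = 0.521). For Nhlh1, Pmp22, Elovl7 and Gfra3 the Klf6 arrays lay between the Klf5 arrays and the YFP arrays of batches 1 and 2, and for Adgre5 they read as high as the Klf5 arrays. The YFP arrays of batch 3 read 8.22 and 7.69 for Nhlh1, 9.55 and 10.73 for Pmp22, and 7.46 and 7.56 for Elovl7. They read 8.69 and 9.25 for Gfra3 and 7.44 and 8.46 for Adgre5, so there a control array read about as high as a Klf6 array. A p that misses the threshold does not show that the lines are alike. Klf6 RNA itself read 10.07 and 10.27 in the Klf5 arrays, against 10.56 and 10.30 in the YFP arrays. Klf6 RNA in the Klf6 arrays and Sfmbt2 RNA in the Sfmbt2 arrays are not given here.

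**Figure D4:**
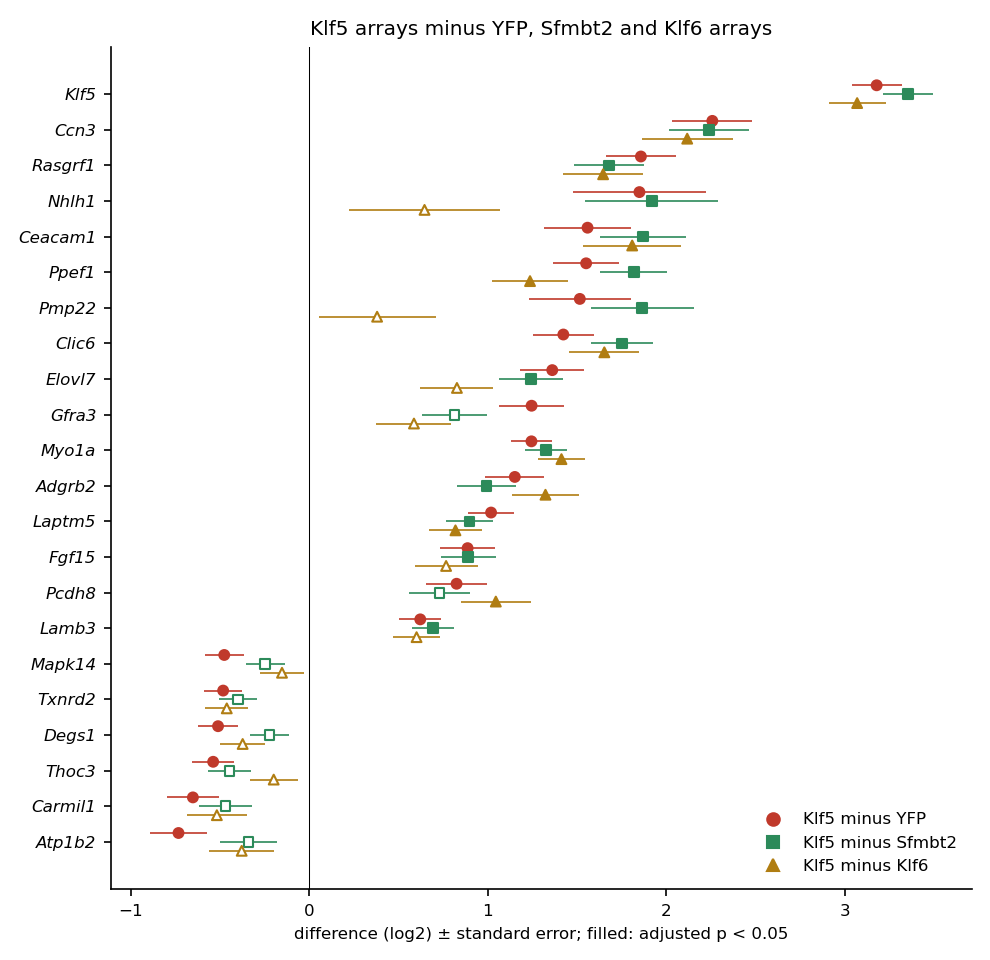
Klf5 minus YFP (circles), Klf5 minus Sfmbt2 (squares) and Klf5 minus Klf6 (triangles) in log2 units with the standard error of the fit, for the 22 named genes that passed against YFP; filled symbols passed at adjusted p under 0.05. Nhlh1 and Pmp22 had smaller differences against Klf6 (0.64 and 0.38) than against YFP (1.85 and 1.52).

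Gene lists of 34 kinds were then read gene by gene. Over all genes the median difference was -0.02, with 3786 genes higher and 5448 lower in both batches. Among the lists, 5 had 1 member that passed and 29 had none. With 0.241% of all genes called, a list of this size without a called member is near the background and is no result about the list. The KLF and Sp family, the DNA-binding relatives of Klf5, had 25 measured members, of which Klf5 alone passed. Without Klf5, Klf12 had the largest difference. It read 10.49 and 10.79 in the Klf5 arrays, against 9.98 and 9.89 in the YFP arrays, which gave 0.71 ± 0.17 and did not pass (adjusted p = 0.0783). Klf3, a repressor of the family, differed by 0.59 ± 0.19 (adjusted p = 0.379). Klf4 and Klf2, which act with Klf5 in embryonic stem cells, differed by -0.13 ± 0.13 and -0.04 ± 0.12.

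The lists for tissues in which KLF5 is known held a single member that passed. Myo1a, Akp3, Ceacam1, Elovl7, Acot11 and Degs1, described above, were on none of them. Of 50 epithelial junction and keratin genes Lamb3 alone passed, and their median difference was -0.01. E-cadherin (Cdh1) differed by -0.12 ± 0.29, Krt8 by -0.02 ± 0.37 and Grhl3, an epithelial transcription factor, by 0.49 ± 0.17 (adjusted p = 0.416). None of 19 naive pluripotency genes passed (median 0.00), and none of 18 trophectoderm genes (median -0.04), where Gata3 had the largest value, 0.67. None of 13 smooth muscle and vascular genes passed (median -0.03), nor did any of 20 genes of lipid metabolism (median 0.04). In that list Scd1, a fatty acid desaturase, differed by 0.92 ± 0.26 (adjusted p = 0.211) and Lpl, lipoprotein lipase, by -0.94 ± 0.37 (adjusted p = 0.607).

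The motor neuron lists held no member that passed. None of 14 generic motor neuron genes did, with a median of 0.07. Isl1 differed by -0.08 ± 0.15 (95% interval -0.38 to 0.22), Mnx1 by 0.08 ± 0.17 (-0.27 to 0.43) and Lhx3 by 0.10 ± 0.28 (-0.47 to 0.68), so none of these intervals reached 1 log2 unit. None of 21 genes of motor columns and pools, 14 anterior and 23 posterior Hox genes, 23 synaptic genes or 22 genes of neurite growth passed.

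Phrenic genes were the readout for which the screen was built, and none of the 12 on the list passed. Their median difference was -0.19. Of the 12, 0 were higher in both batches and 7 were lower in both, as a description. Of all 19938 genes, 3786 were higher and 5448 lower in both batches. Pou3f1, the POU factor of phrenic motor neurons, read 8.46 and 8.37 in the Klf5 arrays, against 8.67 and 8.41 in the YFP arrays, a difference of -0.12 ± 0.19 (95% interval -0.51 to 0.26). Hoxa5, required for phrenic motor neurons in mouse, differed by -0.02 ± 0.36 (-0.75 to 0.70). Alcam, an adhesion molecule, read 7.85 and 8.19 in the Klf5 arrays, against 8.83 and 9.22 in the YFP arrays and 8.87 and 9.16 in those of batch 3. Its groups did not overlap, yet its differences of -0.97 in batch 1 and -1.03 in batch 2 did not pass (SE of their mean 0.36, adjusted p = 0.482). Pcdh10, a protocadherin, differed by -0.49 ± 0.20 (adjusted p = 0.609), Cdh10 by -0.30 ± 0.21 and Ptn, a secreted growth factor, by -0.15 ± 0.27.

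The axon guidance list held several large differences that missed the threshold. Of its 40 genes none passed, and the median was -0.03. Sema6c and Ephb3, which rose over YFP, were not on it. Sema6c read 11.67 and 11.46 in the Klf5 arrays, against 11.48 and 11.43 in the Sfmbt2 arrays, a difference of 0.11 ± 0.15 that did not pass. Ephb3 differed from YFP by 0.84 in batch 1 and 0.20 in batch 2. Sema3e, a secreted semaphorin, read 7.79 and 8.11 in the Klf5 arrays, against 7.37 and 7.07 in the YFP arrays (0.73 ± 0.18, adjusted p = 0.0658). Its receptor Plxnd1 differed by 0.68 ± 0.21 (adjusted p = 0.290). Epha7, an ephrin receptor, read 8.18 and 9.06 in the Klf5 arrays, against 9.44 and 9.75 in the YFP arrays (-0.98 ± 0.25, adjusted p = 0.123). Nrp1, the semaphorin co-receptor, read 10.39 and 10.43 in the Klf5 arrays, against 11.22 and 11.08 in the YFP arrays (-0.74 ± 0.22, adjusted p = 0.236). For Sema3e, Epha7 and Nrp1 the Klf5 arrays lay outside the 4 YFP arrays, and for Plxnd1 a YFP array of batch 3 read between them.

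**Figure D5:**
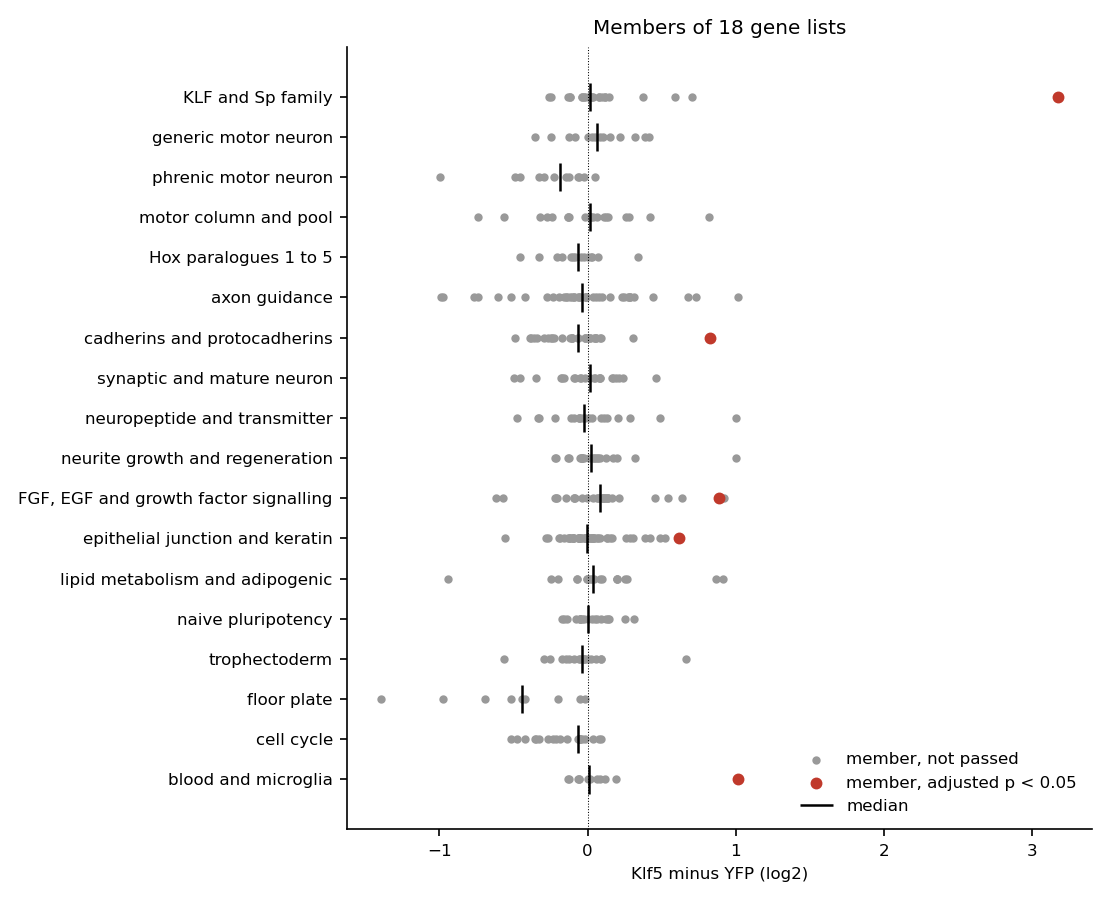
Klf5 minus YFP difference (x axis, log2) of every measured member of 18 of the 34 lists (rows), with members that passed in red and the list's median as a black bar. Klf5, Pcdh8, Fgf15, Lamb3 and Laptm5 are the red points, and the floor plate and phrenic lists have medians of -0.45 and -0.19.

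Markers of other cells that the sort could hold were read for the same arrays. In RNA from many cells, fewer cells of a type and less RNA per cell cannot be told apart. The floor plate list had 0 of 9 members that passed, and its mean level was 8.89 and 9.30 in the Klf5 arrays, against 9.12 and 10.12 in the YFP arrays of their batches and 9.38 and 9.97 in those of batch 3. Its median difference was -0.17 in batch 1 and -0.90 in batch 2. Shh, its defining signal, read 8.97 and 9.63 in the Klf5 arrays, against 10.05 and 11.34 in the YFP arrays (-1.39 ± 0.42, adjusted p = 0.264).

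The cell cycle list, also with 0 of 23 passed, differed in batch 2 and hardly in batch 1. Its mean level was 9.37 and 9.80 in the Klf5 arrays, against 9.30 and 10.20 in the YFP arrays, with median differences of 0.07 in batch 1 and -0.39 in batch 2. The YFP array of batch 2 was thus the higher of the pair in both lists, and without it the fit called 60 genes higher and 77 lower. The part of these cells in the 48 calls was not tested. The blood and microglia list, to which Laptm5 belongs, had no other member that passed, and its mean level was 7.28 and 7.16 in the Klf5 arrays, against 7.22 and 7.05 in the YFP arrays. Ptprc, the pan-leukocyte marker, differed by 0.00 and Csf1r, a microglial receptor, by 0.02.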

How the data were processed

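RNA (500 ng per array) was measured on Affymetrix mouse gene arrays. The deposited log2 values were made by the authors with RMA through oligo, per the submitters' processing notes. No source used here names their versions or the annotation build. RMA gives all arrays 1 distribution of probe signals, so a shift common to most genes can be masked. No scanner intensities were analysed here. The number of arrays limits the precision.

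Of 35556 transcript clusters, 21789 had exactly 1 gene symbol in the array annotation, 1621 several and 12146 none. Where a gene had several clusters (999 genes) the one with the highest mean was kept, which left 19938 genes. Gene lists came from general knowledge. The members and lists were chosen with earlier results of these data known.

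All 68 arrays entered 1 limma model (lmFit and eBayes, limma 3.58.1, R 4.3.3) with a term for each of 32 groups and 8 batches, 30 residual and 6.07 prior degrees of freedom. The YFP CD2 arrays of batch 3 were a group of their own, so Klf5 minus YFP equals the mean of the 2 within-batch differences. Batch pairs the arrays per the labels. Deviations of same-batch arrays from their group means correlated at 0.24 across genes. Tests were two-sided, with Benjamini-Hochberg adjustment over 19938 genes. The model was tested on simulated data. These held no batch effects, so that test does not bear on the batch pairing.

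Named genes were Klf5, the 12 largest rises and falls that passed with the same sign in both batches, up to 4 passing members per list, and Pou3f1, Hoxa5, Pcdh10, Cdh10, Alcam, Ptn, Isl1, Mnx1 and Lhx3. RIKEN, provisional and olfactory receptor genes were counted, not named. Genes outside this rule were chosen after their values were seen. Alternatives were other samples in the fit, no batch terms, other normalization, a filter on dim genes, cluster means, other spread models and leaving out each array.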

Additional observations from a re-analysis of the deposited data

Results flagged for a closer look

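Among the 31 named genes, 1 had a YFP array that stood apart from the other 3 YFP CD2 arrays by Dixon's criterion, which chance meets in about 1 of 20 groups. Pcdh8 read 8.77 in the second YFP array of batch 3, against 9.23 in the first YFP array of that batch and 9.27 and 9.22 in the YFP arrays of batches 1 and 2. That array takes no part in the Klf5 minus YFP difference of Pcdh8 (0.82 ± 0.17) and adds only to the spread.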

How the results depend on the processing

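Klf5 itself passed in every setting run, with differences from 2.97 to 3.39. The count of 48 genes in Klf5 minus YFP depended on which arrays set the spread. It was 23 with the CD2 arrays of batches 1 to 3 alone, 83 without the batch 4 arrays, and 1 (Klf5) with the Klf5 and YFP arrays alone, where the differences are the same and only 2 residual degrees of freedom remain. Leaving out 1 array gave 16 to 137 genes. A second quantile normalization gave 68 genes. With no replicate block (batch terms left out) the count was 38, and 17 for Klf5 minus Sfmbt2, against 34. That comparison gave 17 with the CD2 arrays of batches 1 to 3, 54 without batch 4, and 13 to 26 without 1 array. Klf5 minus Klf6 (22 genes) gave 10, 41 and 10 to 44 in the same settings, and 38 after a second quantile normalization. The cause of these shifts was not tested. Of the 21 named genes other than Klf5 that passed, none changed sign in any setting. Signs did change among genes that never passed. Without 1 array Hoxa5 ran from -0.14 to 0.087, Cdh10 from -0.67 to 0.083, Isl1 from -0.19 to 0.025 and Mnx1 from -0.17 to 0.33. With no replicate block Isl1 was 0.032 and Mnx1 -0.10. Precision differed between genes: Shh, with a standard error of 0.42, did not pass at -1.39, and Myo1a, with 0.12, passed at 1.24.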

Other observations

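Transmitter and peptide genes were described by level only, since none of 20 passed (median difference -0.03). Galanin (Gal), a peptide that injured motor neurons are known to make, read 9.88 and 9.94 in the Klf5 arrays, against 9.09 and 8.72 in the YFP arrays of their batches, a difference of 1.01 ± 0.32 (adjusted p = 0.352). The YFP arrays of batch 3 read 9.57 and 10.28, so the groups overlapped. None of 13 interferon response genes, 15 stress and unfolded protein genes, 14 Notch targets or 21 immediate early genes passed, and their medians were -0.05, 0.02, -0.08 and -0.07. The Notch target list, read beside Notch4, a receptor that rose, had a median difference of 0.21 in batch 1 and -0.28 in batch 2. With 0.241% of all genes called, a list of 14 genes without a called member is no result about the list.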
